A study of Mus musculus with 4 samples.

Results

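The transcripts described here code for enzymes on the path from glucose 6-phosphate to lactate in muscle. They run from Gpi1 at the first shared step to Ldha at the last, without pyruvate kinase. They were taken by name: every array probe whose gene name was Gpi1, Pfkm, Aldoa, Aldoc, Tpi1, Gapdh, Pgk1, Pgam2, Eno3 or Ldha. This gave 10 genes of the 27597 genes and named transcripts on the array, and 15 probes of 41174. Messenger RNA of mouse skeletal muscle was hybridised to 1-colour Agilent arrays, with 1 array per genotype. The 4 groups were wild type (WT), TBP-2-/-, ob/ob, and ob/ob TBP-2-/-, all from mice 10 weeks old with free access to food. TBP-2 is thioredoxin-interacting protein, the product of Txnip, which lowers glucose uptake. The ob/ob mouse lacks functional leptin and becomes obese and insulin resistant. Which muscle was taken, the strain, the sex, the deleted part of Txnip, and whether an RNA came from 1 mouse or a pool are not given in the sources used here.

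Glycolysis splits glucose into pyruvate and yields ATP without oxygen, and lactate dehydrogenase then turns pyruvate to lactate and returns the NAD that glyceraldehyde 3-phosphate dehydrogenase consumes. Fast-twitch fibres hold much more of these enzymes than slow fibres, and several steps have a muscle form (Pfkm, Aldoa, Pgam2, Eno3) beside forms typical of brain or other tissues (Pfkl, Aldoc, Pgam1, Eno1). Txnip is itself induced by glucose through the factors Mlx, Mlxip and Mlxipl, so its loss and the ob/ob genotype both bear on the handling of the sugar that enters this chain.

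Promoter sequences from RefSeq (GRCm38.p6) are shown for the members with a difference of 1.5-fold or more in any comparison below (Gpi1, Pgk1, Pgam2 and Aldoc), with Aldoa, the muscle form of aldolase, beside Aldoc. Each runs 5′ to 3′ on the gene's strand from 250 bases before to 50 bases after an annotated start. Capitals mark ACGTG, the core bound by hypoxia-inducible factors and contained in the E-box CACGTG, and GGGCGG, the GC box bound by Sp factors, on either strand. For Aldoc and Aldoa the first of several listed windows is printed. The Gpi1 window is chr7:34230287-34230586 on the minus strand, that of Pgk1 chrX:106186850-106187149 on the plus strand, and that of Pgam2 chr11:5803747-5804046 on the minus strand. The Aldoc window is chr11:78322823-78323122 on the plus strand, and that of Aldoa chr7:126800398-126800697 on the minus strand.
Gpi1: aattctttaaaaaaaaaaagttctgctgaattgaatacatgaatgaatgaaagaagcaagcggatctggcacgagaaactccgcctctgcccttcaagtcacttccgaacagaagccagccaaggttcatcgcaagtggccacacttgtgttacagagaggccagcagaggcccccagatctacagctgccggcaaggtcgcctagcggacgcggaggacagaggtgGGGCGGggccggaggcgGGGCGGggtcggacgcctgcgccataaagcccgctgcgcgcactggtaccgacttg
Pgk1: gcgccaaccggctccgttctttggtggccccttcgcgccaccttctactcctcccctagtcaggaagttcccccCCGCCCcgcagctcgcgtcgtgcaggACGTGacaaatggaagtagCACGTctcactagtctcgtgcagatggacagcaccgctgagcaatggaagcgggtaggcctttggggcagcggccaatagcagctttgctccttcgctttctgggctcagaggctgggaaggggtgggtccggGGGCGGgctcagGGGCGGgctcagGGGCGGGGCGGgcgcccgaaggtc
Pgam2: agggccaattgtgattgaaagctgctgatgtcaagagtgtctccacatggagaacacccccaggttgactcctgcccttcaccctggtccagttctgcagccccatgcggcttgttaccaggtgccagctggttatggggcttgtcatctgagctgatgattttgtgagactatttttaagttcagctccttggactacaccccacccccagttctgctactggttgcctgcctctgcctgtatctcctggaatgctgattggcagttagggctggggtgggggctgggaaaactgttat
Aldoc: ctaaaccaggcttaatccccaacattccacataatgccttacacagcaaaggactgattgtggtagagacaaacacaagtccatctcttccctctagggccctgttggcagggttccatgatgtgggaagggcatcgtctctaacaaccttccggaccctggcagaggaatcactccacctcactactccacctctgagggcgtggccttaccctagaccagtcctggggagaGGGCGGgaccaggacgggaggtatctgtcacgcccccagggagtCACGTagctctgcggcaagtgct
Aldoa: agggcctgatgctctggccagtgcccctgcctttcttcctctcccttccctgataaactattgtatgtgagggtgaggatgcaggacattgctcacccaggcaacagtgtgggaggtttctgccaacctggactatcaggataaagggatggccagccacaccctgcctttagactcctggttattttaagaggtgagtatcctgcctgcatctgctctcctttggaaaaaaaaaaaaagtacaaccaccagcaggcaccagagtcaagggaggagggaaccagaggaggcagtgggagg

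The Pgk1 window held ACGTG at 2 places and GGGCGG at 5, an overlapping pair among them. The Gpi1 window held 2 GC boxes and no ACGTG, the printed Aldoc window held 1 of each, and the Pgam2 window and the printed Aldoa window held neither. Among all 17 windows of the members, ACGTG lay in 8 windows of 6 members and GGGCGG in 7 windows of 6 members. Over the table's 32851 windows, 19.6% held ACGTG, 35.7% held GGGCGG and 7.15% held CACGTG, which among the members lay in 1 window each of Ldha and Pfkm. No member window held TATAAA, against 13.6% of all windows. Neither marked motif was present in all of the printed windows of the members that differed most.

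All 10 members had a probe well above background on all 4 arrays. The probes of 9 were among the brightest on the array, between 7.75 and 11.24 log2 units above the 75th percentile of the signal of their array. The exception was Aldoc, the aldolase form typical of brain, at -4.35 to -2.83 log2 units relative to that percentile. Fast-fibre and slow-fibre markers (15 and 10 genes) were all well above background on every array, as the labelled tissue would show. Txnip had a signal of 13209 in WT, 868 in TBP-2-/-, 13142 in ob/ob and 166 in ob/ob TBP-2-/-, and so was low on both arrays labelled TBP-2-/-. The 75th percentile was 292, 320.0, 321 and 273 in the same order of arrays. No spot was saturated. On each array 12 of the 15 member probes were read from a second scan at low gain, as were 1.25% to 1.48% of all spots. The mean signal of the brightest member spot reached 86.8% to 91.7% of the saturation value.

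Signals below are as read, before scaling. Each difference is a log2 difference between 2 arrays after scaling at that percentile. Its standard error (SE) comes from the error model of the scanner software and is about 0.20 for the bright members. For these it reflects a relative error of 0.1 set alike for every array, not a spread measured here. The replicate spots of Gpi1 and Pgk1 had SDs of 0.0185 to 0.0483 log2 units within an array. The SE covers technical error only. There is no replicate of any genotype, so "higher" and "lower" describe these arrays, and no pairwise difference carries a p-value. In bulk tissue, fewer cells of a type and less RNA per cell cannot be told apart.

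**Figure D1:**
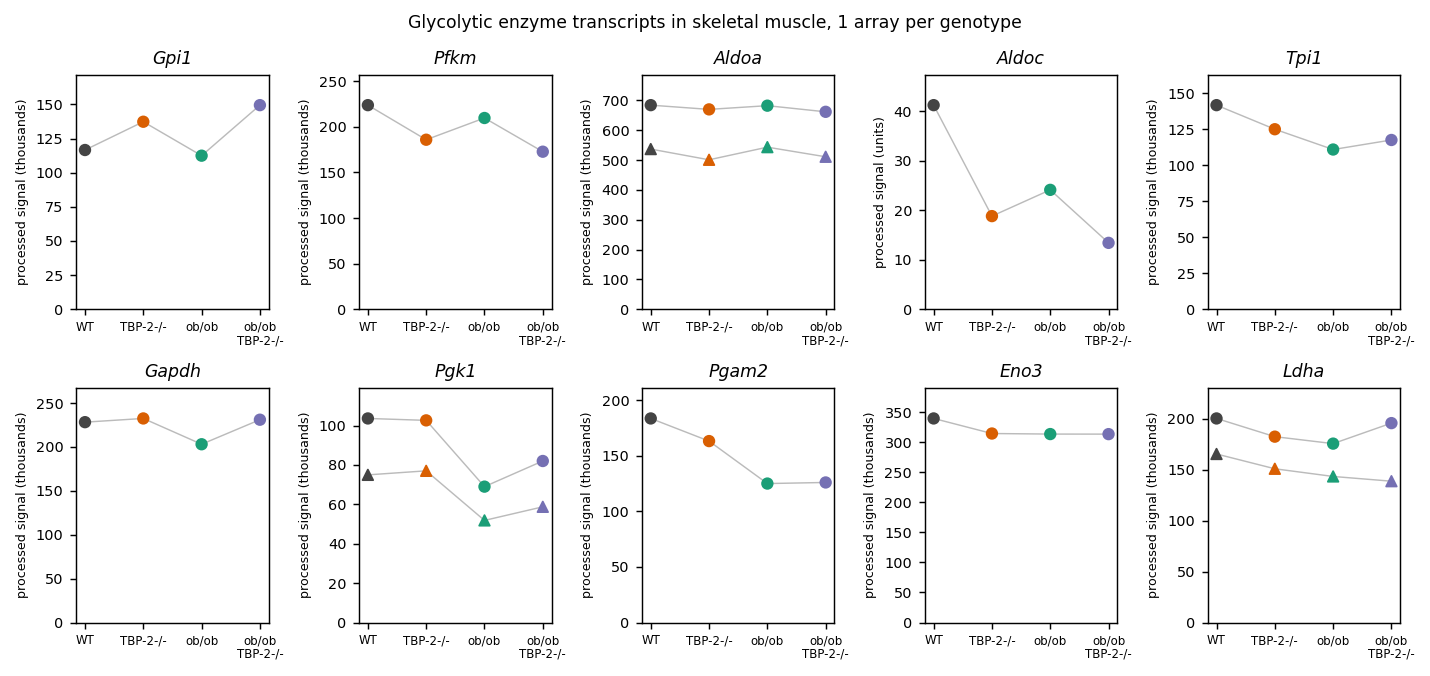
Processed signal of each member before scaling (vertical axes from 0, a scale of its own for each gene) on the WT, TBP-2-/-, ob/ob and ob/ob TBP-2-/- arrays, 1 point per probe and array; circles are the probe used for the gene and triangles a second bright probe. Pgk1 and Pgam2 are low on both ob/ob arrays, Gpi1 is high on both TBP-2-/- arrays, and Aldoc is highest in WT.

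Gpi1, glucose-6-phosphate isomerase, had a signal of 116637 in WT, 137342 in TBP-2-/-, 112485 in ob/ob and 149495 in ob/ob TBP-2-/-. Both arrays without Txnip were thus above both arrays with it. The probe was printed 10 times on each array, and its spots as read did not overlap between arrays with and without Txnip: they ran from 113270 to 119931 in WT and from 134313 to 140964 in TBP-2-/-. In the ob/ob pair the spots ran from 110080 to 114468 with Txnip and from 144123 to 155278 without it. After scaling the spots still did not overlap, with 8.60 to 8.68 log2 units above the percentile in WT, 8.71 to 8.78 in TBP-2-/-, 8.42 to 8.48 in ob/ob and 9.05 to 9.15 in ob/ob TBP-2-/-. The spots of an array share the same RNA, here and for Pgk1 below, so their spread holds no variation between arrays or mice. A shift of a whole array would also part them. The scaled Gpi1 value was 1.56-fold higher in ob/ob TBP-2-/- than in ob/ob (0.64 ± 0.20, SE) and differed by 0.11 ± 0.20 between TBP-2-/- and WT. The difference in ob/ob mice fell short of 1.5-fold under quantile normalization (0.43), without scaling (0.41), with the median over probes (0.43) and under spike-in scaling (0.14). A second Gpi1 probe, designed on another transcript record, had a signal of only 37.2 to 37.7 and did not follow. On mm8, the build of the array annotation, the bright probe lies at chr7:33910936-33910995 and the dim one at chr7:33918603-33918662.

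Pfkm, the muscle subunit of phosphofructokinase and the main control point of the pathway, went the other way from Gpi1. Its signal was 223758 in WT, 185848 in TBP-2-/-, 209668 in ob/ob and 172723 in ob/ob TBP-2-/-, so both arrays without Txnip were the lower ones. Its scaled difference was -0.40 ± 0.20 for TBP-2-/- minus WT and -0.05 ± 0.20 for ob/ob TBP-2-/- minus ob/ob.

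Aldoa had nearly the same signal everywhere, with 683862 in WT, 669665 in TBP-2-/-, 682096 in ob/ob and 661524 in ob/ob TBP-2-/-. Its scaled values spanned 0.21 log2 units over the 4 arrays, the narrowest span of the 10 members, and a second probe spanned signals of 500760 to 543095. Aldoa carried the brightest member spot, the one nearest to the saturation value. Aldoc, which catalyses the same cleavage of fructose 1,6-bisphosphate, was dim and varied most. It had a signal of 41.2 in WT, 18.8 in TBP-2-/-, 24.1 in ob/ob and 13.4 in ob/ob TBP-2-/-. WT was the highest array and ob/ob TBP-2-/- the lowest, 1.52 log2 units apart. Aldoc was 2.4-fold lower in TBP-2-/- than in WT (-1.26 ± 0.27), 1.53-fold lower in ob/ob TBP-2-/- than in ob/ob (-0.61 ± 0.32) and 1.88-fold lower in ob/ob than in WT (-0.91 ± 0.26). Before subtraction of background the same spots read 104, 79, 86 and 71, so the result rests on a small excess over background. With another background correction (normexp) these differences were -0.58, 0.01 and -0.41, and with the median over both probes -0.84, -0.30 and -0.56, so the 2-fold difference was lost under both. The other Aldoc probe was not well above background on any array. The Aldoc probe used lies at chr11:78142657-78142716 and that of Aldoa at chr7:126586433-126586492 (mm8).

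Tpi1, the isomerase that interconverts the triose phosphates that aldolase makes, had a signal of 141682 in WT, 124965 in TBP-2-/-, 110879 in ob/ob and 117501 in ob/ob TBP-2-/-. WT was the highest, and ob/ob was below it by -0.49 ± 0.20. Gapdh, which makes the first NADH of the chain, had a signal of 228267 in WT, 232499 in TBP-2-/-, 203106 in ob/ob and 231067 in ob/ob TBP-2-/-. The ob/ob array was the low one for Gapdh, and ob/ob TBP-2-/- exceeded it by 0.42 ± 0.20. Another 11 probes well above background on all arrays carry names of Gapdh-like copies, and can bind Gapdh message; their median differences were -0.15 and 0.46 for Txnip loss in lean and ob/ob mice, and -0.36 and 0.19 for the ob/ob genotype with and without Txnip. The Tpi1 and Ldha signals are uncertain in the same way, with 2 and 4 such probes. In the order given for Gapdh, their medians were -0.21, 0.10, -0.36 and -0.03 for Tpi1 copies, and -0.26, 0.11, -0.37 and 0.04 for Ldha copies. For Txnip loss in ob/ob mice these were below the 0.32 and 0.39 of the probes used for Tpi1 and Ldha.

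Pgk1, phosphoglycerate kinase, makes the first ATP of the chain. Its signal was 103596 in WT, 102619 in TBP-2-/-, 68984 in ob/ob and 81997 in ob/ob TBP-2-/-. As read, both ob/ob arrays were below both lean arrays, with spots from 66111 to 85102 against 97987 to 109825. After scaling the spots of ob/ob TBP-2-/- (8.17 to 8.29 log2 units above the percentile) overlapped those of TBP-2-/- (8.26 to 8.42), a difference of -0.09 ± 0.20, while those of ob/ob (7.69 to 7.83) stayed below WT (8.42 to 8.53). Pgk1 was 1.65-fold lower in ob/ob than in WT (-0.72 ± 0.20). It was 1.4-fold higher in ob/ob TBP-2-/- than in ob/ob (0.48 ± 0.20). A second, overlapping probe read 74957, 77004, 51841 and 58736 in the same order of arrays. It ranked the arrays alike after scaling but not as read, where it had TBP-2-/- above WT. Its ob/ob minus WT difference was -0.67. The probe used lies at chrX:102406147-102406206 (mm8).

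Pgam2, the muscle form of phosphoglycerate mutase, had a signal of 183502 in WT, 163144 in TBP-2-/-, 124960 in ob/ob and 125945 in ob/ob TBP-2-/-. Both ob/ob arrays lay below both lean arrays. Pgam2 was 1.61-fold lower in ob/ob than in WT (-0.69 ± 0.20). Without Txnip the scaled difference of ob/ob TBP-2-/- from TBP-2-/- was -0.14 ± 0.20.

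Eno3, muscle enolase, had a signal of 339557 in WT, 314484 in TBP-2-/-, 313565 in ob/ob and 313467 in ob/ob TBP-2-/-. As read, only WT stood apart. After scaling, WT and ob/ob TBP-2-/- lay together (10.18 and 10.17 log2 units above the percentile) over TBP-2-/- and ob/ob (9.94 and 9.93), a span of 0.25 log2 units. Ldha, the lactate dehydrogenase subunit typical of fast muscle, had a signal of 200304 in WT, 182433 in TBP-2-/-, 175599 in ob/ob and 195726 in ob/ob TBP-2-/-. Its second probe read 165424, 150911, 143369 and 138716, so as read the probes placed ob/ob TBP-2-/- differently. After scaling, ob/ob was the lowest array and WT and ob/ob TBP-2-/- the upper pair by both probes. For ob/ob TBP-2-/- minus ob/ob the scaled difference was 0.39 ± 0.20 by the first probe and 0.19 by the second.

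**Figure D2:**
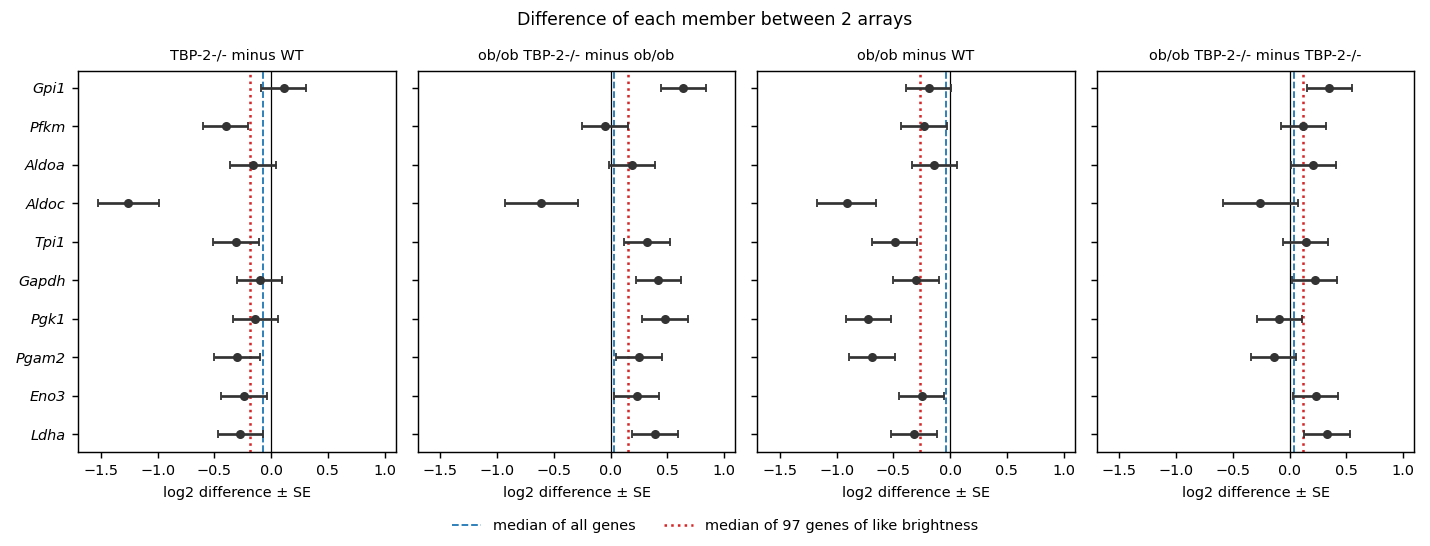
Log2 difference of each member between 2 arrays (horizontal axis; bars are the SE of the scanner's error model) in the 4 comparisons, with the median of all genes (dashed) and of 97 genes of like brightness (dotted). Most members lie near the dotted line; Aldoc lies left of it in each panel, Gpi1 right of it in the Txnip comparisons, and Pgk1 and Pgam2 left of it in both ob/ob comparisons.

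With the lean background held fixed, the members were on balance slightly lower without Txnip. Their median difference for TBP-2-/- minus WT was -0.25, and 9 of 10 were below 0, beside 60.4% of the 15220 genes well above background on both arrays and 96.9% of 97 genes of like brightness (8.19 to 11.13 log2 units above the percentile). Gpi1 was the exception. Only the members were left out of the 97 genes. These still hold fast-fibre genes and probes named for Gapdh-like copies, so they are not a background wholly apart from the chain. One member, Aldoc, was 1.5-fold or more lower, as were 3.29% of all genes, and it also passed 2-fold, as did 0.88%, except under normexp and with the median over probes as given above. None was 1.5-fold or more higher, as were 5.91%. Only the difference of Aldoc exceeded 2 SE, as did those of 16% of all genes.

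In ob/ob mice the direction was the opposite. The median for ob/ob TBP-2-/- minus ob/ob was 0.28, and 8 of 10 members were above 0, beside 54.4% of 15461 genes; of the genes of like brightness 27.8% were below 0. Aldoc and Pfkm were the members below 0. Gpi1 was 1.5-fold or more higher (6.51% of all genes) and Aldoc 1.5-fold or more lower (3.65%). The differences of Gpi1, Gapdh and Pgk1 exceeded 2 SE, as did 17.7% of all genes, and that of Gapdh was 0.29 under quantile normalization and 0.19 without scaling.

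The ob/ob genotype came with lower values in mice with Txnip. For ob/ob minus WT the median was -0.31 and all 10 members were below 0, beside 54.8% of 15088 genes and 91.8% of the genes of like brightness. Aldoc, Pgk1 and Pgam2, 3 of 10, were 1.5-fold or more lower, as were 6.63% of all genes, and none was that much higher (6.34%). Under quantile normalization Pgk1 (-0.42) and Pgam2 (-0.36) fell short of 1.5-fold, as did Aldoc under normexp (-0.41) and with the median over probes (-0.56). Pgk1 and Pgam2 were near 0 under spike-in scaling (-0.08 and -0.05), where Aldoc was -0.27. In the main values these members and Tpi1 exceeded 2 SE, as did 22.1% of all genes. Without Txnip, the median for ob/ob TBP-2-/- minus TBP-2-/- was 0.18, 7 of 10 members were above 0, beside 56% of 15618 genes, and no member reached 1.5-fold in either direction (6.39% of all genes higher, 4.91% lower) or exceeded 2 SE, as did 19.2% of all genes. Each array enters 2 of these comparisons, and comparisons that share one are not independent.

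The difference between the Txnip effect in ob/ob and in lean mice was above 0 for all 10 members, from 0.35 to 0.66 with a median of 0.54. It was above 0 for 58.6% of the 14908 genes that passed the background criterion on all arrays, which had a median of 0.08 and 0.37 over the 97 genes of like brightness, of which 84.5% were above 0. The SE of this difference was 0.29 for the bright members and 0.42 for Aldoc. Its sign turned under another scaling: the median was 0.18 after quantile normalization, with 9 of 10 above 0, and -0.21 after scaling on the spike-in RNA, with none above 0.

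Much of the shared shift was also present in other bright genes, a set that still holds fast-fibre genes and probes of Gapdh-like copies. The 97 genes of like brightness had medians of -0.19 and 0.15 for Txnip loss in lean and ob/ob mice, and of -0.27 and 0.12 for the ob/ob genotype with and without Txnip. For the 9 bright members the medians were -0.24, 0.32, -0.30 and 0.21 in that order. The percentile scaling alone moves every gene by -0.13, 0.23, -0.13 and 0.23 in the 4 comparisons. Without any scaling between arrays the medians of all 10 members, Aldoc included, were -0.12, 0.05, -0.18 and -0.05. Quantile normalization gave -0.03, 0.11, -0.08 and 0.04, and spike-in scaling gave -0.01, -0.23, 0.32 and 0.06. The direction of the median of all 10 therefore turned with the scaling in every comparison but TBP-2-/- minus WT. There it ran from -0.25 to -0.01. For the 9 bright members it ran from -0.24 to 0.01 in that comparison, with 4 of 9 below 0 under spike-in scaling. The median of all genes moved as well, under spike-in scaling by 0.64 for ob/ob minus WT and by -0.51 for ob/ob TBP-2-/- minus ob/ob.

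**Figure D3:**
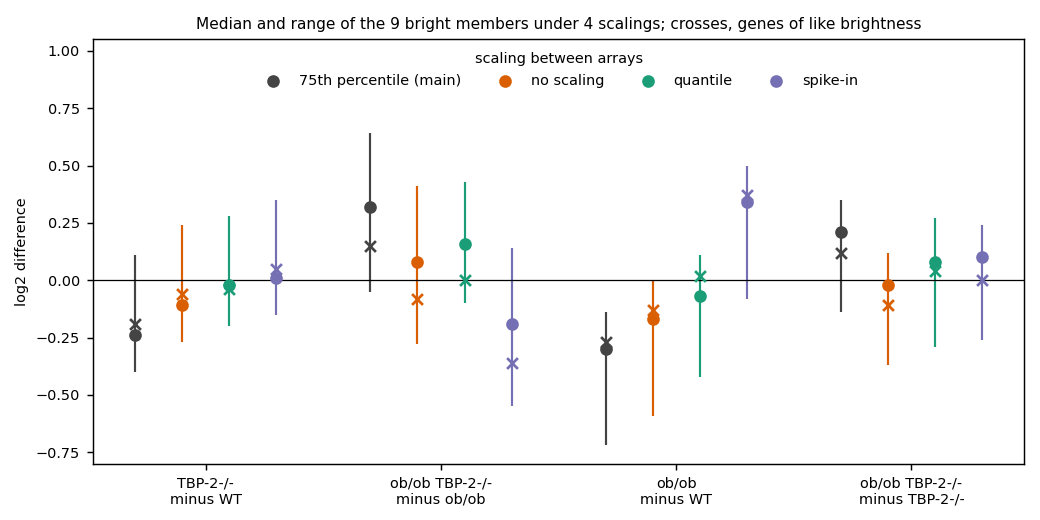
Median (circle) and range (line) of the log2 differences of the 9 bright members, with the median of 97 genes of like brightness (cross), in the 4 comparisons under 4 ways of scaling between arrays. The members' median is -0.30 for ob/ob minus WT with percentile scaling and 0.34 with spike-in scaling, and the crosses move with the circles.

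The members kept close to each other, with named exceptions. The SD over the 9 bright members was 0.15 and 0.20 for Txnip loss in lean and ob/ob mice, and 0.21 and 0.17 for the ob/ob genotype with and without Txnip, below the 0.40 to 0.46 over all genes. Over the 97 genes of like brightness it was 0.16, 0.28, 0.23 and 0.36. With Aldoc the SD over the members was 0.36, 0.35, 0.26 and 0.21. The chain thus moved together to within about the SE that the error model sets for a difference. The 9 bright members were about as close to each other as other bright genes were in 2 of the comparisons and closer in the other 2. Whether these spreads differ was not tested.

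Ratios between members on the same arrays do not depend on a scaling factor. Relative to the median of the 9 bright members, Gpi1 was the highest of the 9 in both Txnip comparisons, by 0.35 in lean and 0.33 in ob/ob mice, and Pfkm was the lowest in both, by -0.16 and -0.36. These comparisons share no array. Gpi1 also ranked high for the ob/ob genotype, at 0.12 with Txnip (rank 2) and 0.14 without it (rank 1). Under quantile normalization Pfkm ranked 8 of 9 for TBP-2-/- minus WT and so was not the lowest. Between ob/ob and lean mice, Pgk1 and Pgam2 were the lowest pair both with Txnip (-0.42 and -0.39) and without it (-0.31 and -0.36), again on separate arrays. The SE that the error model sets for a difference is about 0.20, so each of these relative values taken alone is at most about 2 SE. Over 7 ways of processing, Gpi1 stayed at 0.30 to 0.35 and 0.27 to 0.33 in the Txnip comparisons, Pgk1 at -0.42 to -0.34 and -0.31 to -0.15 in the ob/ob comparisons, and Pgam2 at -0.39 to -0.29 and -0.38 to -0.33. Of these ways only quantile normalization and normexp could change the ratios, since the others differ by a factor per array. The median over probes was not among the 7. With it Gpi1 differed by -0.01 in lean and 0.43 in ob/ob mice, beside medians of -0.24 and 0.29 for the 9 bright members. Pgk1, at 0.45, was then above Gpi1 in ob/ob mice.

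**Figure D4:**
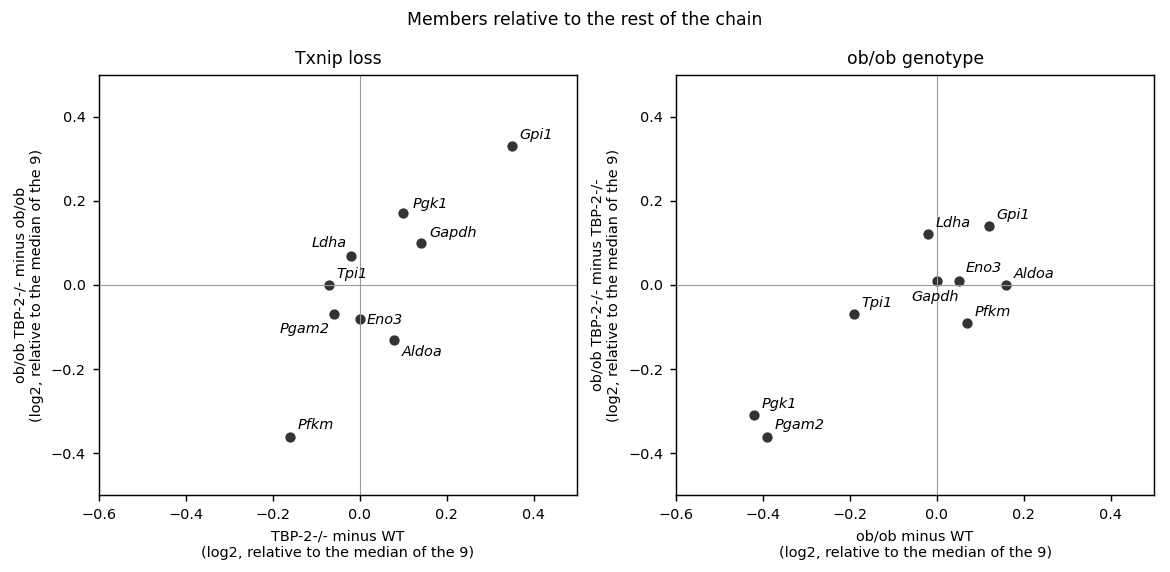
Log2 difference of each of the 9 bright members relative to their median, for Txnip loss (left; lean mice on the horizontal axis, ob/ob mice on the vertical axis) and the ob/ob genotype (right; with Txnip horizontally, without it vertically), 1 point per gene. The axes of a panel share no array; Gpi1 lies at 0.35 and 0.33 in the left panel, and Pgk1 and Pgam2 lie at or below -0.31 on both axes of the right panel.

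A single test was possible, an additive model of both genotypes over the 4 arrays (limma, 1 residual degree of freedom, Benjamini-Hochberg adjustment over 16115 genes). Its residual is the difference between the Txnip effects in ob/ob and in lean mice, so its p-values do not measure variation between mice. Txnip effects of opposite sign on the 2 backgrounds average out in it, as for Tpi1 (0.00) and Eno3 (-0.00). At an adjusted p under 0.05 it called 16 genes for Txnip (0.0993%) and 51 for ob/ob (0.316%), and 0 of the 10 members in either. At an unadjusted p under 0.05 it held 1 of 10 members for each genotype, Aldoc both times, near the share of all genes (9.89% for Txnip and 13.7% for ob/ob). The fitted Txnip difference of Aldoc was -0.94 ± 0.22 (SE), with an adjusted p of 0.294, or 0.166 to 1 over the alternatives. Its ob/ob difference was -0.58 ± 0.22 with an adjusted p of 0.354, or 0.252 to 0.983. The fitted Txnip difference of Gpi1 was 0.37 ± 0.20 (adjusted p 0.638), and the fitted ob/ob differences of Pgk1 and Pgam2 were -0.41 ± 0.22 (0.489) and -0.42 ± 0.20 (0.462). On simulated data the Txnip fit recovered 3 of 50 genes changed by 1 log2 unit and 50 of 50 changed by 2, so differences of the members' size were mostly below what it can call. The simulated Txnip effects were equal on both backgrounds apart from random error, unlike those of the members.

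The other genes of the pathway were 25 genes, among them hexokinases, pyruvate kinases, isoform partners, regulators of phosphofructokinase and lactate carriers. Their medians were -0.03, 0.18, -0.02 and 0.14 in the 4 comparisons, over 20 or 21 genes well above background on both arrays. Of these, 0 were 1.5-fold or more higher and 1 lower for TBP-2-/- minus WT, 1 and 1 for ob/ob TBP-2-/- minus ob/ob, 0 and 0 for ob/ob minus WT, and 3 and 1 for ob/ob TBP-2-/- minus TBP-2-/-. Pfkfb3 makes fructose 2,6-bisphosphate, which activates the product of Pfkm. Its signal was 21341 in WT, 34984 in TBP-2-/-, 16195 in ob/ob and 32925 in ob/ob TBP-2-/-, so it was high on both arrays without Txnip, by 0.58 in lean and 1.26 in ob/ob mice. Ldhb, the lactate dehydrogenase subunit typical of oxidative fibres, had a signal of 48705 in WT, 53244 in TBP-2-/-, 60706 in ob/ob and 23894 in ob/ob TBP-2-/-. It was low on the last array alone, by -1.11 against ob/ob, where Ldha differed by 0.39. Slc16a3, the lactate exporter of fast fibres, had 36187, 26314, 38895 and 37059 in the same order of arrays, with TBP-2-/- the low one (-0.59 against WT).

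Pkm, pyruvate kinase, a step of the path that is not among the members, lay with the chain. It differed by -0.06, 0.45, -0.36 and 0.15 in the 4 comparisons. Of the isoform partners, Pgam1, the other mutase, differed by 0.19, 0.18, -0.02 and -0.02, and so showed none of the lower ob/ob values of Pgam2. Eno1 differed by 0.33, 0.36, -0.15 and -0.11. Pfkl, the liver subunit of phosphofructokinase, differed by -0.18, 0.28, 0.24 and 0.70, and Pfkp, the platelet subunit, by 0.52, 0.31, 0.49 and 0.28, so neither followed Pfkm. Eno2 was not well above background in WT and was at least 1.21-fold higher in TBP-2-/- and at least 1.66-fold higher in ob/ob.

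Of 13 known or proposed regulators of these genes, Mlxip, the glucose-sensing partner of Mlx, was highest for Txnip loss, with 0.53 in lean and 0.68 in ob/ob mice. Ppargc1a, a coactivator of oxidative metabolism, was -0.71 for ob/ob minus WT. The medians of the 13 were -0.19, 0.05, -0.04 and 0.04. Of 14 hypoxia-responsive genes outside the chain, Ddit4, an inhibitor of mTOR complex 1, was 2.05 for ob/ob TBP-2-/- minus ob/ob and Slc2a1, a glucose transporter, was -1.23 for TBP-2-/- minus WT. The medians of this list were 0.04, 0.16, 0.07 and 0.02, and so did not follow the signs of the chain.

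Markers of fibre type and of other cells moved between the same arrays. Of 15 fast-fibre genes, all 15 were below 0 for TBP-2-/- minus WT and for ob/ob minus WT (medians -0.18 and -0.16), and 12 of 15 were above 0 in the other comparisons (0.21 and 0.20), the signs of the glycolytic chain. Their summed signal over the percentile was 17194.3, 15289.3, 15403.1 and 17478.5 from WT to ob/ob TBP-2-/-. Of the 97 genes of like brightness to the members, 96.9% were below 0 for TBP-2-/- minus WT and 91.8% for ob/ob minus WT. For ob/ob TBP-2-/- minus ob/ob and minus TBP-2-/- 27.8% and 39.2% were. The signs of the fast-fibre genes were thus those of most such bright genes. Fast-fibre genes of that brightness are themselves among the 97, so part of this likeness is built in. The 10 slow-fibre genes had medians of -0.01, -0.55, -0.69 and -1.23. Of 7 adipocyte genes, none was below 0 in either Txnip comparison (medians 0.80 and 1.30), with summed signals of 205, 310, 134 and 246. For the ob/ob genotype with and without Txnip their medians were 0.47 and 0.76, with 3 and 1 of 7 below 0. The lower sums in ob/ob mice go against these medians, since a sum weighs bright genes most. Cfd was -3.38 and -3.12 there, with a signal of 15411 in WT and 1627 in ob/ob. The 7 tendon genes had medians of 3.67, 0.37, 4.03 and 0.93, with a summed signal of 20.8 in WT and 64.8 to 121 elsewhere. The 6 Schwann cell genes had summed signals of 15.4 in WT and 27 to 40.9 elsewhere, and the 5 macrophage genes 52.8 to 69.3. Every marker of these lists was well above background on all arrays. Their part in the members' differences was not tested.

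By Euclidean distance between profiles centred over the 4 arrays, among 12317 named genes well above background on all of them, those most like the members' median profile (0.18, -0.08, -0.21 and 0.09 from WT to ob/ob TBP-2-/-) were Phtf2, Sccpdh, Amz2 and Ankra2, at distances of 0.0302 to 0.0334. Those most like Aldoc (0.92, -0.34, 0.01 and -0.60) were Cntfr, Nr5a1, Wdr31 and Polr2h, at 0.12 to 0.289. A likeness over 4 arrays is a description of these arrays.

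Ordered by scaled level, WT was the highest array for 6 members (Pfkm, Aldoc, Tpi1, Pgk1, Pgam2 and Eno3) and ob/ob TBP-2-/- for 4 (Gpi1, Aldoa, Gapdh and Ldha). The ob/ob array was the lowest for 7 members. The exceptions were Pfkm and Aldoa, lowest in TBP-2-/-, and Aldoc, lowest in ob/ob TBP-2-/-. This order was not counted over all genes. Of the 97 genes of like brightness 91.8% were below 0 for ob/ob minus WT and 27.8% for ob/ob TBP-2-/- minus ob/ob. A low ob/ob array was thus not particular to the members. For Gpi1, Pgk1 and Pgam2 the highest and lowest arrays were 0.64 to 0.72 log2 units apart. For Aldoa and Eno3 they were 0.21 and 0.25 apart. The SE is that of a single pairwise difference, and a range over 4 arrays tends to be larger. These ranges can therefore not be read as multiples of the SE, which also leaves out error of the scaling. Under spike-in scaling the same pairs of arrays differed by 0.14 for Gpi1 (ob/ob TBP-2-/- minus ob/ob). For ob/ob minus WT they differed by -0.08 for Pgk1 and -0.05 for Pgam2.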

How the data were processed

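Spot intensity values were deposited as scanner files, made with Agilent Feature Extraction 9.5.3.1 per the file headers: background-subtracted, corrected for spatial trends and not scaled between arrays. The authors also deposited a table of log2 values of the same arrays, centred on each probe's median, whose differences match percentile scaling (slope 1, r 1). Here log2 signals were taken minus the 75th percentile of each array, without 59 to 110 outlier spots, and replicate spots were averaged. A gene is its probe with the highest mean level. Members were matched by gene name, and other probes through RefSeq names where possible. Pairwise comparisons took genes above background on each array of the pair, and the fit, with limma 3.58.1 in R 4.3.3 and 3.791 prior degrees of freedom, used genes so on at least 2. It was tested on simulated data.

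Bounds ("at least") set the dim array at the lowest signal that passed the background criterion there. All 4 arrays share 1 slide and 1 scan, and their number limits the precision. For 1 sample the genotype field differs in spelling from the title, which was used. The named genes are the members, listed isoform partners, Pkm, pathway genes past 1.5-fold, up to 2 genes of each regulator or marker list and the 4 most alike by profile. Proteins planned for aldolase are not shown. Some genes of the pathway list are not reported here. Members and lists were chosen with earlier results of these data known. Genes of like brightness, copies of members, the ratios to the chain's median and the unscaled setting were chosen after seeing the data.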

Additional observations from a re-analysis of the deposited data

Results flagged for a closer look

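Tpi1, Pgam2, Eno3 and Ldha had Txnip effects of opposite sign on the 2 backgrounds, each beyond 1 SE of the scanner's error model, and the difference was not tested. The share of all genes that meet this rule was not counted. The 97 genes of like brightness had medians of -0.19 and 0.15, and 84.5% of them had a difference of effects above 0. A shift in this direction was thus not particular to the members. Tpi1 was -0.31 on the lean and 0.32 on the ob/ob background. Pgam2 was -0.30 and 0.25, Eno3 was -0.24 and 0.23, and Ldha was -0.27 and 0.39. The percentile scaling adds -0.13 and 0.23 to these values. The opposite signs were lost under spike-in scaling for Tpi1 (-0.06 and -0.19), Pgam2 (-0.05 and -0.26) and Ldha (-0.02 and -0.12), and turned round for Eno3 (0.01 and -0.27). Under quantile normalization Pgam2 was -0.10 and -0.04. The second Ldha probe gave -0.26 and 0.19, the latter under 1 SE. Probes named for copies of Tpi1 and Ldha had medians of only 0.10 and 0.11 on the ob/ob background.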

How the results depend on the processing

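Of 40 member differences, the sign changed for 10 under quantile normalization, 18 under spike-in scaling, 8 without scaling, 2 under normexp, 1 with the median over probes and none under the other settings. The sign held under every setting for 5 members in TBP-2-/- minus WT, 2 in ob/ob TBP-2-/- minus ob/ob (Gpi1 and Pfkm), 3 in ob/ob minus WT (Aldoc, Pgk1 and Pgam2) and 4 in ob/ob TBP-2-/- minus TBP-2-/-. Aldoc in ob/ob TBP-2-/- minus ob/ob turned to 0.01 under normexp. The cause was not tested. Differences under about 2 SE and dim signals such as that of Aldoc are limited by 1 array per genotype. No paired analysis was possible because each genotype has 1 array.

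In the order TBP-2-/- minus WT, ob/ob TBP-2-/- minus ob/ob, and ob/ob minus WT, the members' medians under spike-in scaling were -0.01, -0.23 and 0.32, with 5, 9 and 3 members below 0. Quantile normalization gave medians of -0.03 for TBP-2-/- minus WT and -0.08 for ob/ob minus WT. Without scaling, the medians of ob/ob TBP-2-/- minus ob/ob and minus TBP-2-/- were 0.05 and -0.05, with 4 and 8 members below 0. Under normexp 1 member was below 0 in the second comparison. Relative to genes of like brightness and without Aldoc, the medians were -0.05 and -0.03 in the outer pair, and 5, 1 and 5 members were below 0. The difference of Txnip effects was 0.18 under quantile normalization, -0.21 under spike-in scaling and 0.18 without scaling.

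Over all genes, those past 2-fold in the 4 comparisons numbered 398, 413, 537 and 525, and those past 1.5-fold 1400, 1571, 1957 and 1765. Normexp gave 136, 156, 190 and 203 past 2-fold, and 529, 653, 898 and 773 past 1.5-fold. Without a filter on dim probes there were 2206, 2118, 2297 and 2460, and 4627, 4666, 5031 and 5184. Spike-in scaling gave 917 and 2157 past 2-fold in the middle pair, and 2279, 5549 and 7927 past 1.5-fold in the first 3. The share of higher calls past 1.5-fold in ob/ob minus WT went from 957 of 1957 to 7776 of 7927 under spike-in scaling, and to 1511 of 2106 without scaling.

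The limma fit called 16 genes for Txnip and 51 for ob/ob. It called 5 and 0 under quantile normalization (1621 and 2230 at an unadjusted p under 0.05), 101 and 238 under spike-in scaling, 585 and 1049 under normexp, 50 and 144 with all arrays above background, and 7 and 0 without a filter (1880 and 2083 unadjusted). For ob/ob it called 21 with the median over probes and 32 with the authors' value table. No member was called in any of these fits.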
